A study of Homo sapiens with 12 samples.

Results

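The genes described here are the NF-kB transcription factors, their inhibitors, and a set of genes known to be induced by NF-kB, among them cytokines and chemokines. They are the 34 rows, of 60664 in the deposited table of read counts, whose gene name stood on a list of 34 symbols. The list held 5 NF-kB subunits, 5 inhibitors and IkB-like proteins, 7 intracellular or surface proteins, and 17 secreted proteins. Of the 34 genes, 32 passed the filter on low counts that left 17544 genes for testing, and TNF and CCL20 did not. The cells were MDA-MB-231, a line from human breast cancer of the triple-negative type, labelled wild type. All of them were grown at pH 7.4 in high-glucose medium with fetal bovine serum, washed, and then kept for 24 h at 1 of 3 pH values, 7.4, 6.9 or 6.4, and each medium gave 4 libraries. The middle medium is pH 6.9 in the sample labels and pH 6.7 in the treatment protocol, and the label is used below. A single cell line in culture was studied, and nothing states that the repeats were separate cultures, so p-values measure only the spread between these samples.

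NF-kB dimers are held in the cytoplasm by IkB proteins. Signals from cytokine and innate immune receptors activate the IkB kinase complex, IkB is degraded, and the freed dimers enter the nucleus and bind kappaB sites in promoters. NFKBIA is itself such a target, which makes the pathway limit its own activity, and a non-canonical branch processes the NFKB2 protein to release dimers with RELB. In breast cancer cells of the triple-negative type the pathway is known for driving secretion of interleukins and of chemokines that attract neutrophils.

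RefSeq promoters (GRCh38.p14, 250 bases before to 50 bases after the start) were found for 25 of the 34 genes and were searched on both strands for the kappaB core GGANNTTCC and the AP-1 site TGANTCA. Where a gene symbol had several promoters, only the first listed was used, so a core in another would be missed. The core was present in 13 of the 25 promoters (52.0%). It was present in 1253 of 27305 promoters (4.59%), a single one for each gene symbol. The list was made of NF-kB factors and genes known to be induced by NF-kB, so a high share follows from its choice. The AP-1 site was present in 3 of the 25, those of IL1A, IL11 and CXCL8, against 7.76% of the 27305. Promoters of 3 genes are shown because their genes differed between media and hold a core, given in capitals, upstream of the annotated gene. CXCL2 also differed between media, but its core lies inside the annotated gene and is shown further below. The CXCL8 bases, chr4:73740319-73740505 on the plus strand, also hold an AP-1 site, tgactca, and lie upstream of the annotated gene. The NFKBIA bases, chr14:35404750-35404999 on the minus strand, hold a pair of cores. The NFKBIZ bases are chr3:101827740-101827989 on the plus strand.
CXCL8: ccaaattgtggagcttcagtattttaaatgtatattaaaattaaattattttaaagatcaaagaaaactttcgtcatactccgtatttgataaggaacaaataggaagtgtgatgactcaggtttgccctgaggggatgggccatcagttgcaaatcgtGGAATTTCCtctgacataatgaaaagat
NFKBIA: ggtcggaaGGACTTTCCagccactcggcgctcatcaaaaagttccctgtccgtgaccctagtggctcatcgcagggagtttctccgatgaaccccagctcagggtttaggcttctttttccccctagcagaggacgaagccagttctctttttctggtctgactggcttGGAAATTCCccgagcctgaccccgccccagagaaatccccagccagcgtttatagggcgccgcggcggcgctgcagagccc
NFKBIZ: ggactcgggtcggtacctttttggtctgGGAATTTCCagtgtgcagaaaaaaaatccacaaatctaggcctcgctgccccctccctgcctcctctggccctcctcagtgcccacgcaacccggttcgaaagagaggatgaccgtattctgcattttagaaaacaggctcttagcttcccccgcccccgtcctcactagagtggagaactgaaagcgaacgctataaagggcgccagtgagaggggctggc

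The cores of 5 further genes are shown with 4 flanking bases on each side, because the genes hold like sites and had different values. CXCL1 (chr4:73869311-73869327, plus strand), CXCL2 (chr4:74099260-74099276, minus strand) and CXCL3 (chr4:74038755-74038771, minus strand) had the identical stretch, and IL6 (chr7:22727124-22727140) and CSF2 (chr5:132073683-132073699), both on the plus strand, had others.
CXCL1: tccgGGAATTTCCctgg
CXCL2: tccgGGAATTTCCctgg
CXCL3: tccgGGAATTTCCctgg
IL6: tgtgGGATTTTCCcatg
CSF2: gccaGGAGATTCCacag
The stretches of CXCL2, CXCL3 and IL6 lie inside the annotated genes, and those of CXCL1 and CSF2 upstream of them. A match describes the letters only. Among the genes with a promoter in the table, the core was present in 3 of 8 genes called higher at pH 6.4 than at pH 7.4, in the 1 gene called lower, and in 9 of 14 that were not called. RELB, NFKBIE, IER3, LIF, CSF1, CSF3, CXCL16, CCL2 and CCL5 had no entry.

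Library totals ranged from 21060767 to 50643233 counts. The pH 7.4 library of repeat 1 stood apart: 17841 genes had a count there and 21628 in the pH 6.9 library of repeat 2, against 23113 to 27384 in the other 10 libraries. In the pH 7.4 library of repeat 1, 178 genes were at 0 that had at least 15 counts in each of the other 11 libraries, and in each other library there were 0 such genes. CXCL3 was 1 of the 178. Changes at pH 6.4 against pH 7.4 are given also without that library where leaving it out moved a call or turned the direction. Of the line's defining genes, vimentin (VIM), EGFR, CD44, CAV1, FOSL1 and AXL ranged from 142 to 2816 CPM, the read count scaled to library size by TMM, across all libraries. The hormone receptors ESR1 and PGR stayed at or below 0.278 CPM, while ERBB2, EPCAM and KRT19, listed as low or absent in this line, were present, with ERBB2 at 66.8 to 97.6 CPM. Exons of RELA, REL, NFKBIB, BCL3, TNFAIP3, IER3, SOD2, ICAM1, IL6, LIF and CXCL16 overlap other annotated genes, whose reads may be counted with theirs.

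After 24 h at pH 6.4 the transcript levels of several NF-kB factors and a few secreted mediators were higher than at pH 7.4, while the main inhibitor and 1 chemokine were lower. In edgeR's quasi-likelihood test with Benjamini-Hochberg adjustment over all 17544 genes, 10 of the 32 tested genes were called higher at an adjusted p under 0.05, where 15.6% of all genes tested were called higher. They were NFKB2, RELA, RELB, NFKBIZ, BCL3, IER3, IL1A, IL11, CXCL2 and CXCL8. NFKBIA and CCL2 were the 2 called lower, where 14.7% of all genes tested were called lower, and the other 20 were not called. The median log2 fold change was 0.35 over the 32 genes and -0.00083 over all genes tested. With the repeat number fitted as a block, 13 were called higher and 5 lower, against 21.4% and 20.2% of all genes tested. Without the pH 7.4 library of repeat 3, 6 were called higher, and the share of all genes called in that fit is not given. In 7 genes every pH 6.4 library was above every pH 7.4 library, and in 2 (NFKBIA and CXCL16) every one was below, where this held for 14.4% and 13.5% of all genes tested. In libraries from whole cultures, fewer cells that express a gene and less RNA per cell cannot be told apart.

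Of the 5 subunits, the transcripts of NFKB2, RELA and RELB were higher at pH 6.4, and those of NFKB1 and REL were not called. NFKB2 encodes p100, the precursor of p52. Its level in repeats 1 to 4 was 74.5, 99.2, 69.3 and 96.8 CPM at pH 6.4, against 46.7, 61.0, 62.0 and 54.1 CPM at pH 7.4. Every pH 6.4 library was above every pH 7.4 library, and NFKB2 rose 1.52-fold (log2 0.60 ± 0.13 SE, adjusted p = 0.0028). RELB, the usual partner of p52, had 20.0, 25.0, 21.3 and 23.2 CPM at pH 6.4, against 11.1, 15.0, 12.6 and 9.48 CPM at pH 7.4. The media did not overlap, and RELB rose 1.86-fold (log2 0.90 ± 0.14 SE, adjusted p = 0.000502). RELA encodes p65, the transactivating subunit of the canonical dimer. It was measured at 144, 180.1, 142 and 196 CPM at pH 6.4, against 125, 115, 137 and 130.5 CPM at pH 7.4. The lowest pH 6.4 library lay just above the highest pH 7.4 library, and RELA rose 1.30-fold (log2 0.38 ± 0.10 SE, adjusted p = 0.0127).

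NFKB1, which encodes the p50 precursor p105, had 46.1, 53.6, 42.4 and 53.5 CPM at pH 6.4, against 49.7, 53.2, 52.7 and 54.1 CPM at pH 7.4. Its libraries overlapped (log2 -0.10 ± 0.09 SE, adjusted p = 0.412). REL, known chiefly from lymphoid cells, had 7.78, 8.67, 7.80 and 6.34 CPM at pH 6.4, against 10.4, 8.79, 7.12 and 7.74 CPM at pH 7.4. It also overlapped between media (log2 -0.16 ± 0.15 SE, adjusted p = 0.473), and part of its exons is shared with another gene annotated on the same strand. At pH 6.9, RELB had 17.1, 16.0, 18.8 and 14.1 CPM in repeats 1 to 4, with 3 libraries between the ranges of the other media and repeat 4 inside the pH 7.4 range. NFKB2 had 64.8, 63.7, 67.7 and 55.4 CPM there, with 3 libraries above the pH 7.4 range and all below the pH 6.4 range. RELA had 118, 129.6, 135 and 131 CPM, within the pH 7.4 range. NFKB1 ranged from 46.6 to 49.8 CPM there and REL from 7.61 to 8.71 CPM.

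Of the 5 inhibitors and IkB-like proteins, NFKBIZ and BCL3 rose, NFKBIA fell, and NFKBIB and NFKBIE were not called. NFKBIA encodes IkB alpha, which holds RELA dimers in the cytoplasm and whose promoter with its pair of cores is printed above. Its level in repeats 1 to 4 was 78.3, 57.6, 85.5 and 51.7 CPM at pH 6.4, against 129, 132, 146 and 134 CPM at pH 7.4. All pH 6.4 libraries were below all pH 7.4 libraries, and NFKBIA fell 1.98-fold (log2 -0.99 ± 0.14 SE, adjusted p = 0.000194). NFKBIZ encodes IkB zeta, a nuclear protein that acts with p50 on secondary response genes. It had 62.8, 72.2, 47.4 and 52.2 CPM at pH 6.4, against 32.9, 35.5, 30.6 and 30.4 CPM at pH 7.4. These did not overlap, and NFKBIZ rose 1.81-fold (log2 0.86 ± 0.13 SE, adjusted p = 0.000254). BCL3, a nuclear IkB protein that binds p50 and p52 homodimers, had 32.2, 36.3, 44.5 and 41.3 CPM at pH 6.4, against 33.2, 20.6, 29.0 and 25.8 CPM at pH 7.4. The pH 7.4 library of repeat 1 was inside the pH 6.4 range and the other 3 were below it. BCL3 rose 1.42-fold (log2 0.51 ± 0.18 SE, adjusted p = 0.0416), and the call was lost in 9 of 22 alternative settings. Among them were leaving out any 1 of the pH 7.4 or pH 6.4 libraries of repeats 2 to 4, or the pH 6.9 library of repeat 4. With the repeat number fitted as a block the BCL3 call was kept (adjusted p = 0.00939).

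At pH 6.9, NFKBIA had 93.8, 86.6, 112 and 93.2 CPM, below every pH 7.4 library and above every pH 6.4 library. NFKBIZ had 42.3, 45.0, 39.2 and 35.5 CPM and again stood between the other media, touching the pH 7.4 range. BCL3 had 26.0, 22.5, 40.1 and 30.1 CPM in the same libraries, and its repeat 3 was higher than the others. IkB beta and IkB epsilon bind the same dimers as IkB alpha with slower turnover. NFKBIB, which encodes IkB beta, averaged 15.5 ± 3.64 CPM at pH 6.4 and 20.7 ± 4.45 CPM at pH 7.4 (SD, n = 4 each). It was not called (log2 -0.42 ± 0.21 SE, adjusted p = 0.141), but with the repeat number fitted as a block it was called lower (adjusted p = 0.00334). NFKBIE, which encodes IkB epsilon, averaged 26.9 ± 3.30 CPM at pH 6.4 and 29.5 ± 5.25 CPM at pH 7.4 and was not called (log2 -0.13 ± 0.13 SE, adjusted p = 0.49).

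**Figure D1:**
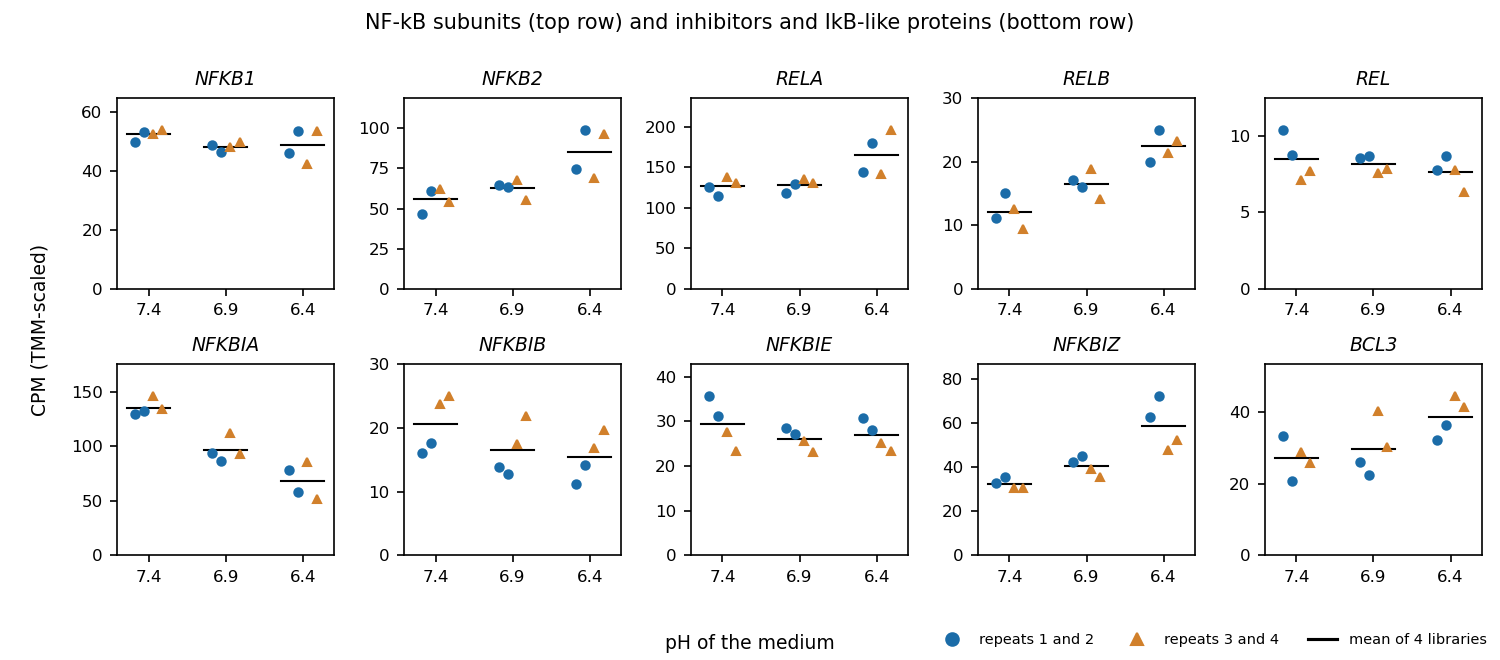
Level of each NF-kB subunit (top row) and of each inhibitor or IkB-like protein (bottom row), in CPM after TMM scaling, by the pH of the medium. Points are single libraries, with repeats 1 and 2 as circles and repeats 3 and 4 as triangles, and the line is the mean of 4 libraries. NFKB2, RELB, RELA and NFKBIZ were higher at pH 6.4 than at pH 7.4 in every library, and NFKBIA was lower in every library.

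Among the 7 intracellular and surface targets, IER3 rose and the other 6 were not called. The share called higher was 14.3%, close to the 15.6% of all genes tested. All 7 estimates were above 0, as were those of 8758 of all 17544 genes tested. The 7 genes had a median log2 fold change of 0.31. IER3, an immediate early gene induced by stress, had 638, 749.6, 567 and 845 CPM at pH 6.4, against 427, 396, 491 and 451 CPM at pH 7.4. Its media did not overlap, and it rose 1.59-fold (log2 0.66 ± 0.11 SE, adjusted p = 0.000641). The pH 6.9 libraries had 444, 439.6, 397 and 423 CPM of IER3, within the pH 7.4 range. An antisense gene overlaps its exons, and the strand setting of the counting was not given in the sources used here. BIRC3, an inhibitor of apoptosis that ubiquitinates signalling proteins of the pathway, averaged 79.1 ± 21.5 CPM at pH 6.4 and 51.8 ± 12.1 CPM at pH 7.4 (log2 0.61 ± 0.22 SE, adjusted p = 0.0505). BIRC3 was called higher in 8 of 22 alternative settings, among them without the pH 7.4 library of repeat 1 (adjusted p = 0.0406) and by DESeq2's Wald test (adjusted p = 0.0206). ICAM1, a leukocyte adhesion molecule, averaged 53.8 ± 11.3 CPM at pH 6.4 and 37.1 ± 9.74 CPM at pH 7.4 (log2 0.54 ± 0.20 SE, adjusted p = 0.0612). SOD2, the mitochondrial superoxide dismutase, averaged 119.9 ± 24.6 CPM at pH 6.4 and 96.7 ± 16.0 CPM at pH 7.4 (log2 0.31 ± 0.15 SE, adjusted p = 0.124). With the repeat number fitted as a block these 3 were called higher, with adjusted p = 0.000213 for BIRC3, 0.000845 for ICAM1 and 0.00253 for SOD2. TNFAIP2, the feedback inhibitor TNFAIP3 (A20) and the adaptor TRAF1 had log2 fold changes of 0.11, 0.10 and 0.18, each smaller than its standard error of 0.17, 0.20 and 0.21.

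Of the 15 secreted proteins tested, 4 rose, 1 fell and 10 were not called, where 15.6% of all genes tested rose and 14.7% fell. The interleukin IL1A, an alarmin that activates the IL-1 receptor, rose with very few reads behind it. It had 91, 90, 34 and 37 counts in repeats 1 to 4 at pH 6.4, against 0, 4, 4 and 6 counts at pH 7.4. These were 2.22, 1.94, 0.801 and 1.27 CPM at pH 6.4, against 0, 0.0827, 0.186 and 0.134 CPM at pH 7.4, without overlap. The fitted rise was 15.8-fold (log2 3.98 ± 0.65 SE, adjusted p = 0.000528), and without the pH 7.4 library of repeat 1, where it was at 0, the log2 fold change was 3.61 (adjusted p = 0.000603). At pH 6.9 it had 58, 32, 10 and 18 counts, or 1.15, 0.635, 0.361 and 0.474 CPM, each above every pH 7.4 library. IL11, a cytokine of the IL-6 family, had 33.3, 32.9, 45.7 and 50.8 CPM at pH 6.4, against 23.4, 16.5, 28.1 and 32.6 CPM at pH 7.4. The media did not overlap, with the pH 6.4 libraries of repeats 1 and 2 just above the pH 7.4 library of repeat 4. IL11 rose 1.62-fold (log2 0.69 ± 0.24 SE, adjusted p = 0.0389), and the call was lost in 8 of 22 alternative settings. Among these were leaving out the pH 7.4 library of repeat 1 (adjusted p = 0.0801), repeat 2 or repeat 3, or the pH 6.4 library of repeat 3 or repeat 4. With the repeat number fitted as a block the IL11 call was kept (adjusted p = 0.000621).

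At pH 6.9, IL11 had 21.8, 26.9, 43.9 and 40.1 CPM, spread over both other media. IL6, a central product of NF-kB in inflammation, averaged 25.6 ± 13.6 CPM at pH 6.4 and 26.4 ± 10.8 CPM at pH 7.4, which was not called (log2 -0.05 ± 0.39 SE, adjusted p = 0.947). The sign of that estimate also turned without the pH 7.4 library of repeat 1 (log2 0.15, adjusted p = 0.83). IL1B averaged 0.994 ± 0.250 CPM at pH 6.4 and 0.661 ± 0.190 CPM at pH 7.4 (log2 0.59 ± 0.38 SE, adjusted p = 0.271), and LIF averaged 48.9 ± 5.19 CPM at pH 6.4 and 44.4 ± 4.79 CPM at pH 7.4 (log2 0.14 ± 0.10 SE, adjusted p = 0.322). Neither was called. TNF, a classical activator and product of the pathway, had 0 to 9 counts per library and was not tested.

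None of the colony stimulating factors was called. CSF1, which supports macrophages, averaged 439 ± 59.9 CPM at pH 6.4 and 526 ± 41.4 CPM at pH 7.4 (log2 -0.26 ± 0.12 SE, adjusted p = 0.103), and with the repeat number fitted as a block it was called lower (adjusted p = 0.00167). CSF2, which encodes GM-CSF, averaged 6.03 ± 2.62 CPM at pH 6.4 and 8.69 ± 7.18 CPM at pH 7.4 (log2 -0.53 ± 0.56 SE, adjusted p = 0.523). Without the pH 7.4 library of repeat 1, which had the highest CSF2 level, its estimate turned positive (log2 0.13, adjusted p = 0.882). CSF3, which encodes G-CSF, averaged 1.02 ± 0.207 CPM at pH 6.4 and 0.546 ± 0.594 CPM at pH 7.4 (log2 0.89 ± 0.58 SE, adjusted p = 0.272). Without the pH 7.4 library of repeat 1, in which CSF3 was highest of that medium, CSF3 was called higher at pH 6.4, with a log2 fold change of 2.00 (adjusted p = 0.00381).

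The chemokines CXCL8 and CXCL2, which attract neutrophils, rose. CXCL8, or interleukin-8, had 24.2, 30.2, 16.1 and 15.6 CPM in repeats 1 to 4 at pH 6.4, against 5.63, 17.2, 4.42 and 5.98 CPM at pH 7.4. The pH 7.4 library of repeat 2 lay inside the pH 6.4 range, and the other 3 were below it. CXCL8 rose 2.56-fold (log2 1.35 ± 0.41 SE, adjusted p = 0.0216). Without that pH 7.4 library the log2 fold change was 2.00 (adjusted p = 0.00142). The CXCL8 call was lost in 6 of 22 alternative settings, among them without the pH 7.4 library of repeat 1 (adjusted p = 0.0594), 3 or 4 or the pH 6.4 library of repeat 2. CXCL2 had 8.29, 9.92, 5.30 and 4.08 CPM at pH 6.4, against 3.66, 5.21, 1.63 and 1.87 CPM at pH 7.4, with the same library inside the pH 6.4 range. CXCL2 rose 2.21-fold (log2 1.14 ± 0.38 SE, adjusted p = 0.0346), and its call was also lost in 6 of 22 settings, among them without the pH 7.4 library of repeat 3 or 4 or the pH 6.4 library of repeat 1 or 2. The blocked fit gave an adjusted p of 9.47e-05 for CXCL8 and 0.000149 for CXCL2. At pH 6.9, CXCL8 had 13.2, 18.9, 7.25 and 7.50 CPM and CXCL2 6.07, 6.51, 3.89 and 2.87 CPM. In each repeat both genes were highest at pH 6.4, next at pH 6.9 and lowest at pH 7.4.

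CXCL1, whose kappaB stretch equals that of CXCL2, averaged 2.61 ± 0.660 CPM at pH 6.4 and 2.99 ± 1.58 CPM at pH 7.4 and was not called (log2 -0.20 ± 0.35 SE, adjusted p = 0.708). CXCL3 had 72, 83, 68 and 45 counts at pH 6.4, against 0, 93, 16 and 25 counts at pH 7.4. It was not called with the pH 7.4 library of repeat 1 (log2 1.02 ± 0.66 SE, adjusted p = 0.263) or without it (log2 0.60, adjusted p = 0.256), but was called higher without the pH 7.4 library of repeat 2 (adjusted p = 0.0438). CXCL1, CXCL2 and CXCL3 are close paralogs, and how reads that map to more than 1 of them were counted was not given in the sources used here. CXCL16, a transmembrane chemokine, averaged 2.34 ± 0.150 CPM at pH 6.4 and 3.47 ± 0.821 CPM at pH 7.4 (log2 -0.56 ± 0.23 SE, adjusted p = 0.0779). It was called lower with the repeat number fitted as a block (adjusted p = 0.0494) and without the pH 7.4 library of repeat 1 (adjusted p = 0.045).

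CCL2, which attracts monocytes, fell. It had 10, 7, 41 and 4 counts in repeats 1 to 4 at pH 6.4, against 80, 38, 45 and 98 counts at pH 7.4. These were 0.244, 0.151, 0.966 and 0.137 CPM at pH 6.4, against 2.32, 0.786, 2.09 and 2.19 CPM at pH 7.4. The pH 6.4 library of repeat 3 was the highest of its medium and lay above the pH 7.4 library of repeat 2, the lowest there. CCL2 fell 4.80-fold (log2 -2.26 ± 0.56 SE, adjusted p = 0.00764), and without that pH 6.4 library the log2 fold change was -3.34 (adjusted p = 0.00014). Its pH 6.9 libraries had 1.25, 0.853, 1.66 and 1.53 CPM, within the pH 7.4 range. CCL5, which attracts T cells and monocytes, averaged 0.766 ± 0.285 CPM at pH 6.4 and 0.412 ± 0.340 CPM at pH 7.4 and was not called (log2 0.91 ± 0.63 SE, adjusted p = 0.306). Without the pH 7.4 library of repeat 1 it was called higher (log2 1.67, adjusted p = 0.0471). CCL20 had 0 to 5 counts per library and was not tested.

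**Figure D2:**
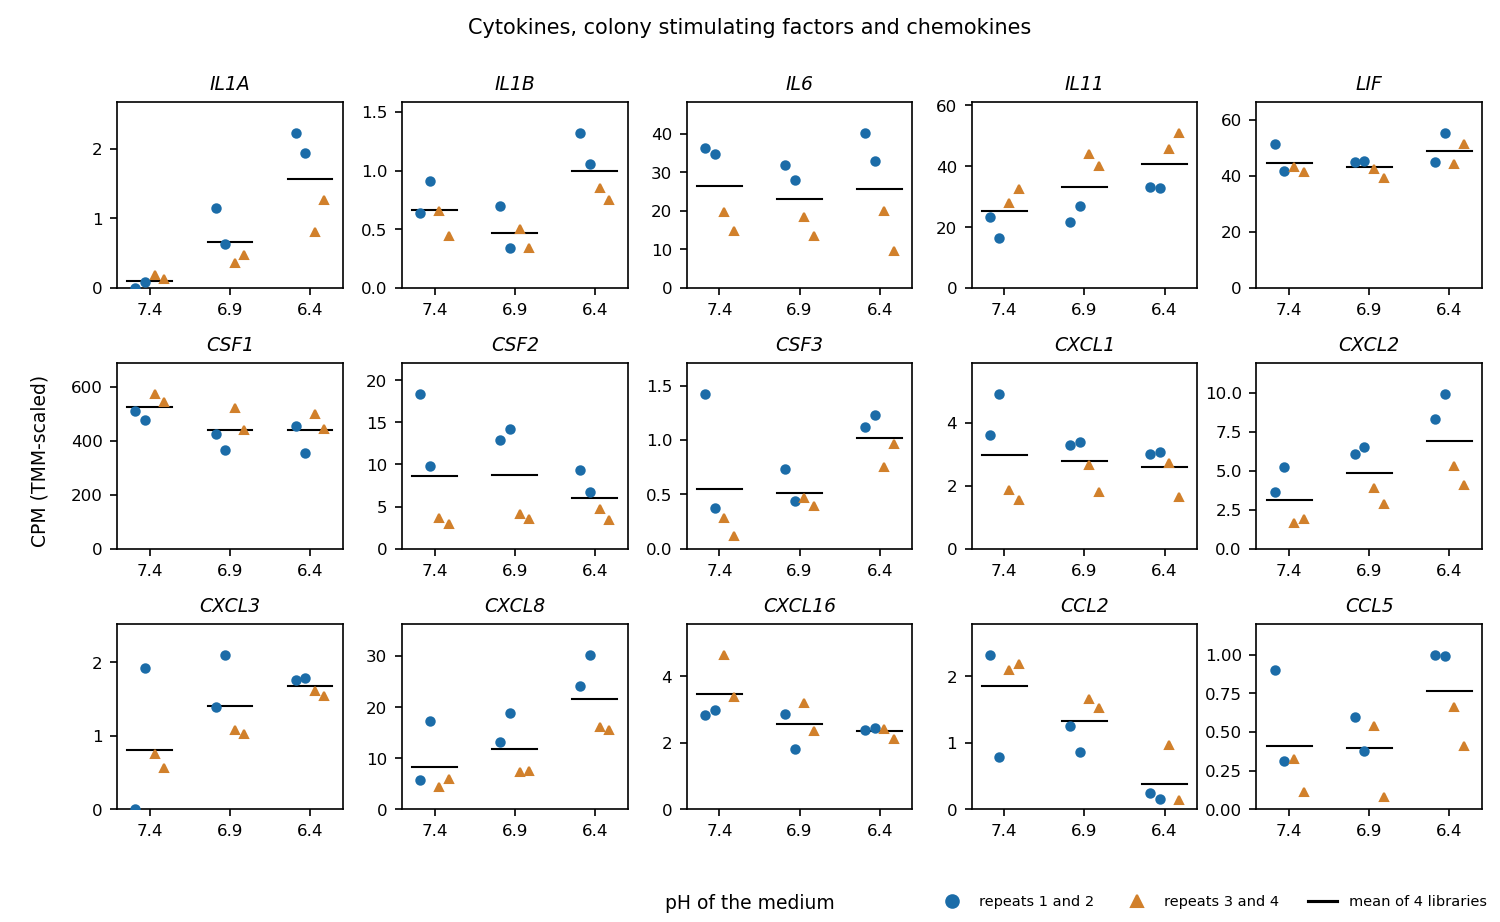
Level of each tested secreted gene, in CPM after TMM scaling, by the pH of the medium, with a separate vertical scale for each gene. Points are single libraries, with repeats 1 and 2 as circles and repeats 3 and 4 as triangles, and the line is the mean of 4 libraries. IL1A, IL11, CXCL2 and CXCL8 had higher means at pH 6.4 than at pH 7.4 and CCL2 a lower one, and IL6, CSF2 and CXCL1 were higher in repeats 1 and 2 than in repeats 3 and 4 at all 3 media.

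Leukocytes are a usual source of many of these secreted proteins, and their markers were measured for that reason. CD3E and MPO were at 0 in all 12 libraries. For each list of markers here, the shares of all genes tested at pH 6.4 against pH 7.4 were 15.6% higher and 14.7% lower. With the block they were 21.4% and 20.2%. Of the 8 leukocyte markers, 4 were tested, 0 were higher and 1, CD14, was lower, and with the block CSF1R was lower too. CSF1R and CD14 had the highest means of the 8 in each medium. The summed level of the 8 was 3.60 to 9.19 CPM at pH 6.4, against 9.41 to 15.2 CPM at pH 7.4, and 9.45 to 14.8 CPM in the pH 6.9 libraries. Of 5 endothelial markers, 3 were tested and 1 was higher, and their sum was 13.5 to 17.9 CPM at pH 6.4 and 9.54 to 17.3 CPM at pH 7.4. Of 4 stromal markers, 3 were tested and 2 were lower, and their sum was 11.4 to 18.4 CPM at pH 6.4 and 27.4 to 35.1 CPM at pH 7.4. Any part of these markers in the changes of the secreted genes was not tested.

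The factors and the secreted proteins were then set side by side. At pH 6.4 against pH 7.4, 15.6% of all genes tested rose, 14.7% fell, and their median log2 fold change was -0.00083. Among the 10 subunits and inhibitors, 5 rose, 1 fell, and the median log2 fold change was 0.14. Among the 15 secreted proteins tested, 4 rose, 1 fell, and the median was 0.59. The secreted genes spread more widely, with estimates that ranged in log2 from -2.26 for CCL2 to 3.98 for IL1A, against -0.99 for NFKBIA to 0.90 for RELB among the factors. They were also less precise, with a median standard error of 0.39, against 0.14 for the factors. Both medians come from the fit without the repeat number as a block. No difference between the groups of genes was tested.

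**Figure D3:**
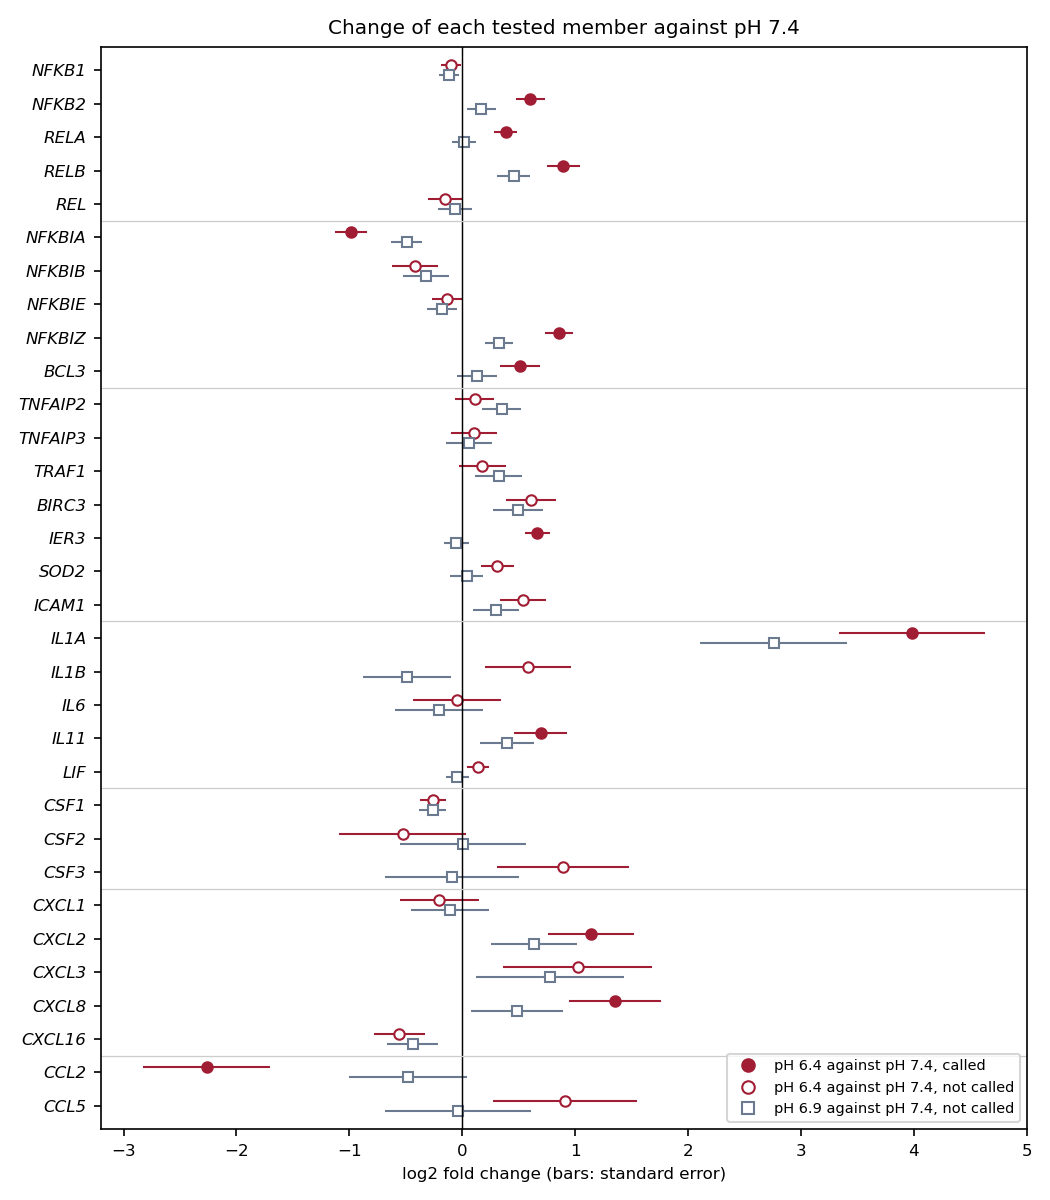
Log2 fold change of each of the 32 tested genes at pH 6.4 against pH 7.4 (circles, filled where called) and at pH 6.9 against pH 7.4 (squares, none called), with bars of 1 standard error and lines between the role groups. At pH 6.4 the factors lay between -0.99 and 0.90 and the secreted genes between -2.26 and 3.98.

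At pH 6.9 against pH 7.4, 0 of the 32 genes were called by edgeR in either direction, where 0.724% of all genes tested were called, and 6 had an unadjusted p under 0.05, where 11.9% of all genes tested had one. DESeq2's Wald test called 1 of them lower, NFKBIA, and 0 higher, against 1.62% and 1.57% of all genes tested. It gave no adjusted p for IL1A, IL1B, CSF3 and CCL5, so it could not call them. The shares count any gene without an adjusted p as not called. With the repeat number as a block, 6 genes were called higher and 2 lower, against 2.96% and 2.44% of all genes tested. Those higher were RELB, NFKBIZ, TNFAIP2, BIRC3, IL1A and CXCL2, and those lower were NFKBIA and CSF1. NFKBIA averaged 96.4 ± 10.8 CPM at pH 6.9 and 135 ± 7.44 CPM at pH 7.4 without overlap, as in 4.91% of all genes tested (log2 -0.49 ± 0.14 SE, adjusted p = 0.128, and adjusted p = 0.014 with the block). IL1A, the other gene without overlap, averaged 0.656 ± 0.351 CPM at pH 6.9 and 0.101 ± 0.0793 CPM at pH 7.4, above it as in 5.18% of all genes tested (log2 2.76 ± 0.65 SE, adjusted p = 0.07, and adjusted p = 0.0453 with the block). RELB differed by less (log2 0.46 ± 0.14 SE, adjusted p = 0.185), and its blocked adjusted p of 0.05 was just under the threshold before rounding. The blocked adjusted p was 0.00756 for BIRC3, 0.0208 for TNFAIP2, 0.0299 for CXCL2, 0.0342 for NFKBIZ and 0.0132 for CSF1. The median log2 fold change was 0.01 over the 32 genes and 0.01 over all genes tested.

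At pH 6.4 against pH 6.9, which shares its pH 6.4 libraries with the first comparison, 5 of the 32 genes were called higher, where 8.83% of all genes tested were. They were NFKB2, RELA, RELB, NFKBIZ and IER3. The 2 called lower were NFKBIA and CCL2, where 8.2% of all genes tested were. IER3 averaged 699.9 ± 122 CPM at pH 6.4 and 426 ± 21.3 CPM at pH 6.9 (log2 0.72 ± 0.11 SE, adjusted p = 0.00307). NFKBIZ averaged 58.7 ± 11.1 CPM at pH 6.4 and 40.5 ± 4.07 CPM at pH 6.9 (log2 0.53 ± 0.12 SE, adjusted p = 0.0118). These 2 calls were lost in 1 of 22 alternative settings each, that of repeats 3 and 4 alone. The subunits lay closer to the threshold, with log2 0.43 ± 0.13 SE, adjusted p = 0.0313 for NFKB2. RELA had log2 0.37 ± 0.10 SE, adjusted p = 0.0287, and RELB had log2 0.44 ± 0.14 SE, adjusted p = 0.0477. For NFKBIA the fall was 1.41-fold (log2 -0.50 ± 0.14 SE, adjusted p = 0.0257), and for CCL2 it was 3.44-fold (log2 -1.78 ± 0.56 SE, adjusted p = 0.0421), or log2 -2.86 without the pH 6.4 library of repeat 3. These 5 calls were lost in 7 to 12 of 22 settings. The count called higher was 2 without any 1 of 6 libraries, namely those of repeats 2 and 4 at pH 6.4 and all 4 at pH 6.9. Shares of all genes called are not given for fits with a library left out. With the repeat number fitted as a block, 10 were called higher and 3 lower, against 16.1% and 15.0% of all genes tested. The block added BCL3 (adjusted p = 0.0377), SOD2 (0.011), IL1B (0.0422), CXCL2 (0.0274) and CXCL8 (0.0031) to those higher. It added TNFAIP2 (0.0342) to those lower. No secreted gene was called higher in edgeR's fit of all 12 libraries without the block. IL1B was called higher by DESeq2's Wald test (adjusted p = 0.0305) and, without the pH 7.4 library of repeat 1, by edgeR (adjusted p = 0.0372). IL1A was also called without that library (adjusted p = 0.0432), and CSF3 with these 2 media alone (adjusted p = 0.0483). The count of falls was 0 without the pH 6.4 library of repeat 2 or repeat 4, or the pH 6.9 library of repeat 1 or repeat 3. It was 1 without the pH 6.4 library of repeat 1, the pH 6.9 library of repeat 4, or the pH 7.4 library of repeat 3 or repeat 4.

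Repeats 3 and 4 were compared with repeats 1 and 2, which share no library. At pH 6.4 against pH 7.4, 29 of the 32 tested genes had an estimate of the same sign in both pairs of repeats. The exceptions were IL6, CSF2 and CXCL1. The share of all genes with the same sign was not computed, so this count cannot be read as a trait of the set. Within repeats 3 and 4, 8 genes were called higher and 1 lower, where 6.11% and 4.73% of all genes tested were. Within repeats 1 and 2, 10 were called higher and 2 lower, where 14.7% and 13.0% of all genes tested were. RELB, NFKBIZ, IER3, IL1A, IL11, CXCL2 and CXCL8 were called higher in both pairs, and NFKBIA was called lower in both. These calls came from a model of all libraries, and in fits of 1 pair alone CXCL8 was not called in repeats 1 and 2 (adjusted p = 0.0523) and IER3 was not called in repeats 3 and 4 (adjusted p = 0.0768). NFKBIA had a log2 fold change of -1.03 in repeats 3 and 4 and -0.94 in repeats 1 and 2. For CXCL8 the values were 1.59 in repeats 3 and 4 and 1.24 in repeats 1 and 2. NFKBIZ had 0.71 in repeats 3 and 4 and 0.98 in repeats 1 and 2.

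The test of the difference between the pairs called 0 of the 32 genes, as it called 0.0% of all genes tested, with 2.9% of all genes at an unadjusted p under 0.05. DESeq2's test of the same difference also called 0 of the 32. The lowest adjusted p among the 32 was 0.968, and 2 had an unadjusted p under 0.05. The first was IL1A, with a log2 fold change of 2.71 in repeats 3 and 4 and 5.39 in repeats 1 and 2, where the pH 7.4 libraries of repeats 1 and 2 held 0 and 4 counts. The other was CSF2, with 0.33 in repeats 3 and 4 and -0.81 in repeats 1 and 2. The difference had a median standard error of 0.29 in log2 over the 32 genes. Without the pH 7.4 library of repeat 2, CSF2 was called (log2 difference 1.53 ± 0.35 SE, adjusted p = 0.0401), and so was CXCL3 (adjusted p = 0.0125), for which the pH 7.4 library of repeat 1 at 0 counts then stood alone. In the other comparisons the difference between the pairs called 0 of the 32 genes as well, against 0.0% of all genes tested. Within repeats 3 and 4 and within repeats 1 and 2, 0 genes were called at pH 6.9 against pH 7.4, where 0.0114% to 0.0456% of all genes tested were called in each direction. At pH 6.4 against pH 6.9, 0 were called within repeats 3 and 4, where 0.108% of all genes tested were called higher and 0.0399% lower. Within repeats 1 and 2 of that comparison 2 genes were called higher, NFKBIZ and IER3, and 0 lower, where 4.49% and 3.89% of all genes tested were called.

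**Figure D4:**
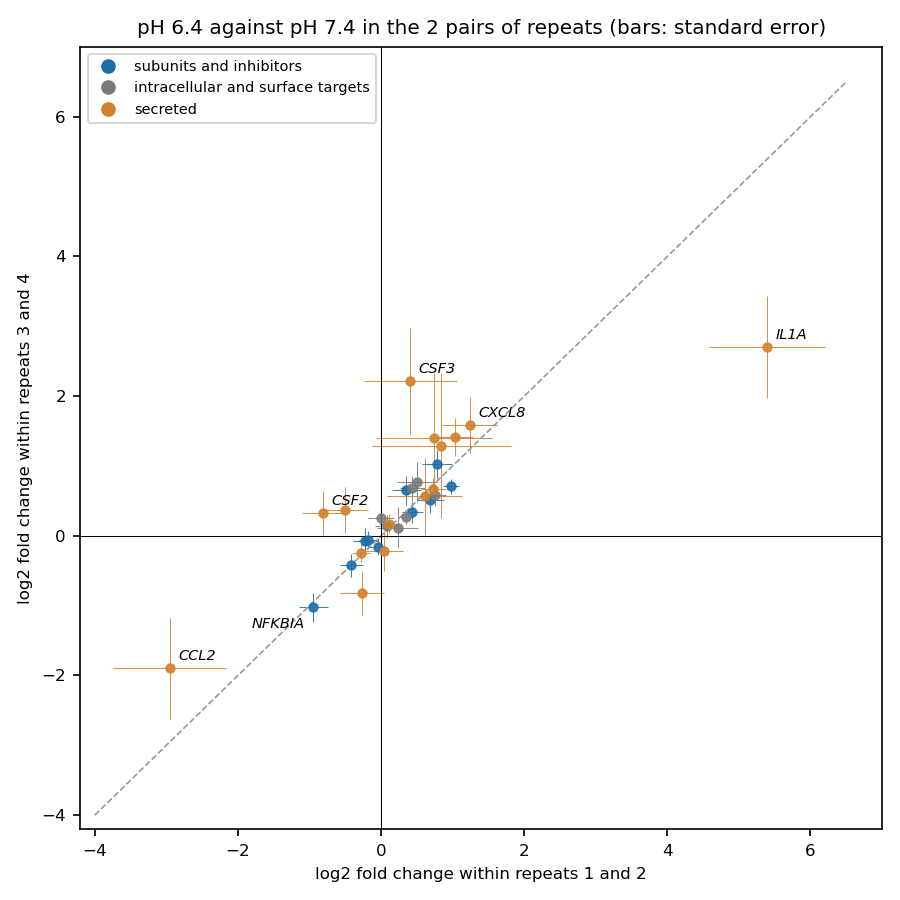
Log2 fold change at pH 6.4 against pH 7.4 within repeats 3 and 4 (vertical) and within repeats 1 and 2 (horizontal) for the 32 tested genes, with bars of 1 standard error, the line of equal values dashed, and colours for the role groups. Of the 32 genes, 29 had the same sign in both pairs, and the share of all genes that did was not computed. IL1A lay farthest from the line, at 2.71 in repeats 3 and 4 and 5.39 in repeats 1 and 2.

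The levels themselves, averaged over the 3 media, differed between the pairs of repeats for 13 of the 32 genes, of which 6 were secreted, 4 intracellular or surface proteins, and 3 inhibitors or IkB-like proteins. This comparison was added after the counts had been seen. It took all libraries as independent, although same-numbered libraries of the 3 media deviated together. Its standard errors and adjusted p-values may therefore be too small. In repeats 3 and 4, 2 of the 32 genes were higher and 11 lower than in repeats 1 and 2, where 9.66% and 7.95% of all genes tested were. None of the 5 subunits was called. CSF2 ranged from 2.88 to 4.69 CPM in repeats 3 and 4, against 6.69 to 18.4 CPM in repeats 1 and 2, without overlap across all media (log2 -1.65 ± 0.18 SE, adjusted p = 0.000192). IL6 ranged from 9.52 to 19.9 CPM in repeats 3 and 4, against 28.1 to 40.0 CPM in repeats 1 and 2, also without overlap (log2 -1.09 ± 0.16 SE, adjusted p = 0.00136). CXCL1 ranged from 1.56 to 2.73 CPM in repeats 3 and 4, against 3.00 to 4.92 CPM in repeats 1 and 2 (log2 -0.79 ± 0.19 SE, adjusted p = 0.0137), and TNFAIP3 from 6.90 to 9.14 CPM in repeats 3 and 4, against 10.4 to 12.1 CPM in repeats 1 and 2 (log2 -0.52 ± 0.10 SE, adjusted p = 0.00429). These 4 were the genes of the set with no overlap between the pairs, all lower in repeats 3 and 4, where 2.63% of all genes tested did not overlap in that direction and 4.54% in the other. CXCL2 and CXCL8 were also lower in repeats 3 and 4, with log2 -1.06 ± 0.15 SE, adjusted p = 0.000893 for CXCL2. For CXCL8 the difference was log2 -1.01 ± 0.23 SE, adjusted p = 0.0113. Smaller falls were called for ICAM1, SOD2, TNFAIP2, NFKBIE and NFKBIZ, from -0.52 to -0.28 in log2. The 2 that were higher in repeats 3 and 4 were IL11, which ranged from 28.1 to 50.8 CPM in repeats 3 and 4, against 16.5 to 33.3 CPM in repeats 1 and 2 (log2 0.65 ± 0.10 SE, adjusted p = 0.00127), and NFKBIB, which ranged from 16.8 to 25.1 CPM in repeats 3 and 4, against 11.2 to 17.6 CPM in repeats 1 and 2 (log2 0.54 ± 0.09 SE, adjusted p = 0.00294). The median over the 15 secreted genes was -0.51, over the 10 subunits and inhibitors 0.0011, and over all genes tested 0.009. The number of genes called lower was 7 without the pH 7.4 or without the pH 6.9 library of repeat 4. The number called higher was 4 without the pH 7.4 library of repeat 1 or the pH 6.4 library of repeat 4. Shares of all genes called in these fits are not given. The labels do not say what sets the repeats apart.

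**Figure D5:**
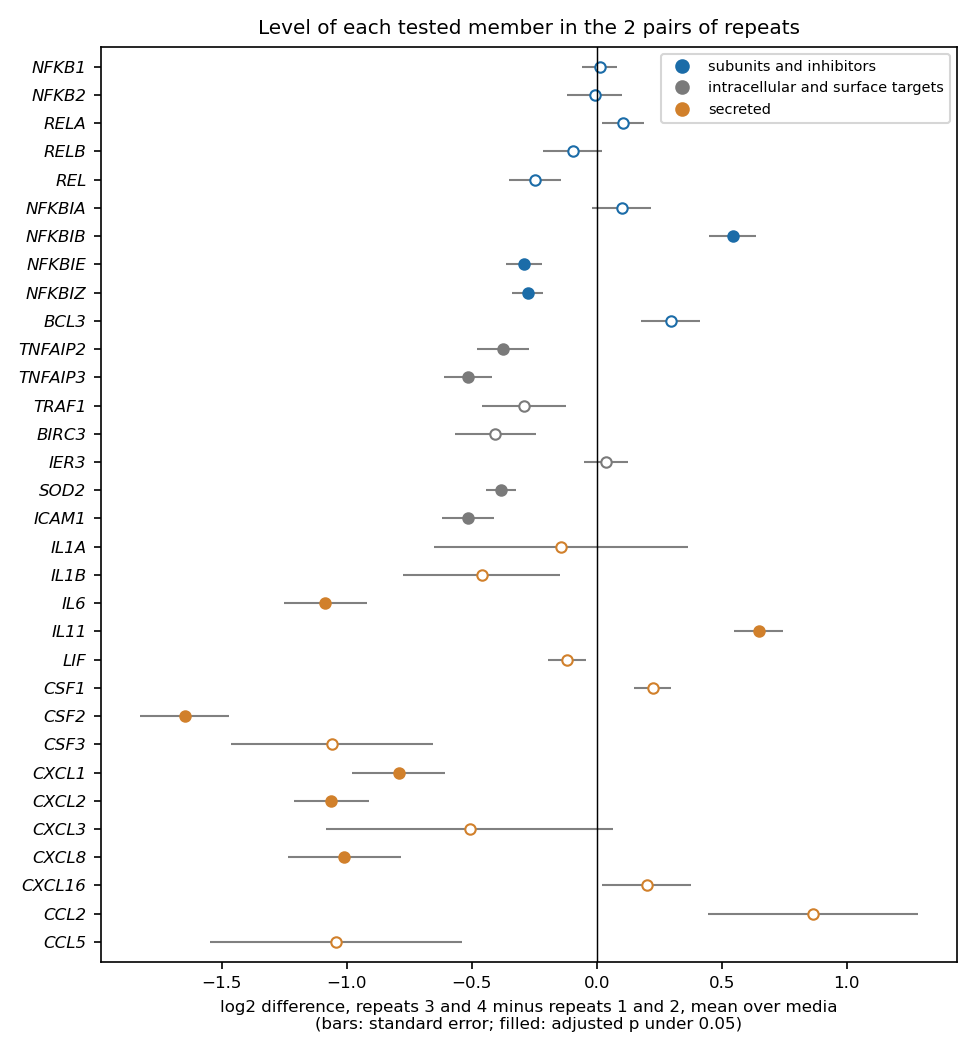
Log2 difference in level, repeats 3 and 4 minus repeats 1 and 2, averaged over the 3 media, for the 32 tested genes (bars of 1 standard error, filled where the adjusted p was under 0.05, colours for the role groups). The 5 subunits lay between -0.25 and 0.11, and CSF2 reached -1.65. The standard errors take libraries of the same repeat number as independent.

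Other genes of the pathway were read from 4 lists at pH 6.4 against pH 7.4. As given above, 15.6% of all genes tested were called higher there and 14.7% lower, or 21.4% and 20.2% with the block. Of 20 receptors and adaptors, all tested, 7 were higher and 2 lower, with a median log2 fold change of 0.10. With the block 9 were higher and 3 lower, the additions being TNFRSF1A, TNFRSF1B and, lower, TLR4. IL1RAP, the co-receptor through which IL-1 signals, had 56.1 ± 11.6 CPM at pH 6.4 and 21.7 ± 3.00 CPM at pH 7.4 (log2 1.37 ± 0.15 SE, adjusted p = 4.66e-05). The receptor-associated kinases IRAK2 (log2 0.57 ± 0.15 SE, adjusted p = 0.0128) and IRAK4 (log2 0.54 ± 0.15 SE, adjusted p = 0.0123) were also higher. TLR3, a receptor for double-stranded RNA, was lower, with 1.64 ± 0.883 CPM at pH 6.4 and 8.84 ± 1.39 CPM at pH 7.4 (log2 -2.42 ± 0.29 SE, adjusted p = 6.60e-05), as was the adaptor MYD88 (log2 -0.27 ± 0.08 SE, adjusted p = 0.0244). Of 19 kinases and ubiquitin enzymes, all tested, 3 were higher and 2 lower, close to the shares of all genes, with a median of 0.0096. With the block IKBKB and TAB2 were added to those higher. MAP3K14, the NF-kB inducing kinase of the non-canonical branch, had 46.1 ± 5.88 CPM at pH 6.4 and 62.5 ± 6.56 CPM at pH 7.4 (log2 -0.44 ± 0.11 SE, adjusted p = 0.00811). IKBKE, a kinase related to the IkB kinases, was lower too (log2 -0.75 ± 0.21 SE, adjusted p = 0.0138). The deubiquitinase OTULIN (log2 0.45 ± 0.13 SE, adjusted p = 0.0175), RBCK1 of the linear ubiquitin ligase (log2 0.28 ± 0.10 SE, adjusted p = 0.0473) and the A20-binding TNIP1 (log2 0.21 ± 0.07 SE, adjusted p = 0.0427) were higher.

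Of 15 receptors for the secreted proteins, 7 were tested. IL11RA (log2 0.90 ± 0.27 SE, adjusted p = 0.0202) and LIFR (log2 0.41 ± 0.09 SE, adjusted p = 0.0044) were higher, and CSF2RA, the GM-CSF receptor chain, was lower (log2 -0.78 ± 0.14 SE, adjusted p = 0.000853). With the block IL6R was also higher and CSF1R lower. CXCR2, the receptor of CXCL1, CXCL2, CXCL3 and CXCL8, was at 0 in all 12 libraries, and CXCR1 had 1 count in total. Of 16 further secreted or induced genes, 14 were tested, 2 were higher and 1 was lower. IL24, a cytokine of the IL-10 family, had 6.24 ± 2.69 CPM at pH 6.4 and 0.925 ± 0.527 CPM at pH 7.4 (log2 2.75 ± 0.47 SE, adjusted p = 0.000728). IL32 was higher (log2 0.77 ± 0.18 SE, adjusted p = 0.00546), and the mucosal chemokine CCL28 was lower (log2 -1.07 ± 0.26 SE, adjusted p = 0.00644). With the block PLAU was also higher, and IL18 and CCL26 were lower. At pH 6.9 against pH 7.4, 0 genes of the 4 lists were called without the block, where 0.724% of all genes tested were. With the block 3 were called higher, TRAF3, IL32 and PLAU, and 0 lower. The shares of all genes tested were then 2.96% higher and 2.44% lower.

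Levels were compared between genes per kilobase of exon in the GENCODE annotation of the same genome build. IER3 led, with 516 ± 90.2 CPM per kilobase at pH 6.4 and 326 ± 29.4 at pH 7.4 (SD, n = 4 each). CSF1 followed, with 81.0 ± 11.1 CPM per kilobase at pH 6.4 and 97.1 ± 7.65 at pH 7.4. NFKBIA was the third at pH 7.4, with 57.1 ± 3.13 CPM per kilobase, and the fifth at pH 6.4, with 28.8 ± 6.82, within the spread of RELA at 30.3 ± 4.95 and TNFAIP2 at 32.9 ± 5.54. CXCL8 had 9.46 ± 3.09 CPM per kilobase at pH 6.4 and 3.66 ± 2.63 at pH 7.4. IL1A, though it had the largest fold change of the set, remained near the bottom, with 0.733 ± 0.303 CPM per kilobase at pH 6.4 and 0.0474 ± 0.0373 at pH 7.4. SOD2 is left out of this order, because a second gene of that symbol overlaps its exons.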

How the data were processed

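RNA from MDA-MB-231 cells in 3 media, 4 libraries each, was made into stranded poly(A) libraries, per the labels' protocols, and read on a NextSeq500. The deposited values were raw read counts per gene in 1 table. The authors used STAR and featureCounts on GRCh38.p13 (hg38), per the submitters' processing notes. Versions, strand setting and the handling of multi-mapping reads were not given in the sources used here. Totals of 21060767 to 50643233 counts set the precision: 3 counts were 0.0595 to 0.140 CPM, and this covers counting error only. At most 0.424% of counts fell in the 20055 genes without a symbol.

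Counts were filtered with edgeR's filterByExpr, scaled by TMM and fitted over all 12 libraries with edgeR's robust quasi-likelihood model (edgeR 4.0.16, limma 3.58.1, R 4.3.3), with 1 mean per medium, 9 residual degrees of freedom and a common biological coefficient of variation of 0.198. Calls needed an adjusted p under 0.05 (Benjamini-Hochberg) over all 17544 genes tested. Within-pair changes and their difference came from a model with a mean for each medium in each pair of repeats. CPM values use TMM library sizes, and SE is the standard error of a log2 fold change.

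Repeat numbers come from the sample labels, and same-numbered libraries deviated together. All 12 same-numbered pairs had correlations of their deviations from the medium means of 0.297 to 0.798, over the 9749 genes that averaged 10 CPM or more. Libraries with different numbers from the same pair of repeats also correlated, up to 0.560 for pH 6.9 repeat 4 with pH 7.4 repeat 3. The pH 6.4 library of repeat 1 correlated more with pH 7.4 repeat 2 (0.497) than with pH 7.4 repeat 1 (0.458). Part of the pairing is thus shared within repeats 1 and 2 and within repeats 3 and 4. Because same-numbered libraries correlated, blocked values are given where they changed a call of the set. Blocked calls are given for the 4 pathway lists against pH 7.4. Alternatives were library-size scaling, DESeq2 1.42.0 size factors and Wald test, other filters, fits of 2 media, each pair of repeats, and each library left out.

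All tested genes of the set are named, and other pathway genes were named as the called ones with the largest changes in each list and direction. The genes and lists were chosen with earlier results of these data known, and the comparison of levels between pairs of repeats was added after seeing the data. The scripts were tested on simulated data. The values of 1 marker gene are not reported here.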

Additional observations from a re-analysis of the deposited data

Results flagged for a closer look

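In each medium the highest and the lowest of the 4 libraries were compared with the others for each of the 32 tested genes. In 3 of these 96 groups of 4 libraries the gap to the nearest library, divided by the whole range, was above Dixon's critical value for 4 samples, where chance gives about 1 in 20 groups. CXCL8 had 17.2 CPM in the pH 7.4 library of repeat 2, against 4.42 to 5.98 CPM in the other pH 7.4 libraries. CCL2 had 0.966 CPM in the pH 6.4 library of repeat 3, against 0.137 to 0.244 CPM in the other pH 6.4 libraries. CCL2 had 0.786 CPM in the pH 7.4 library of repeat 2, against 2.09 to 2.32 CPM in the other pH 7.4 libraries. Both CXCL8 and CCL2 were still called at pH 6.4 against pH 7.4 without either of these libraries.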

How the results depend on the processing

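The 19 gene calls between media were recomputed under 22 alternatives each. Of 418 values 333 kept their call, 85 lost it and 0 reversed. At pH 6.4 against pH 7.4, IL1A, NFKBIA, NFKBIZ and RELB were called under all 22, and NFKB2, RELA, IER3 and CCL2 lost the call with repeats 3 and 4 alone, a fit with fewer samples. The number called lower (2) was 5 with the repeat number fitted as a block and 1 with repeats 3 and 4 alone. Leaving out 1 library gave 6 to 11 called higher, with 6 without the pH 7.4 library of repeat 3, and 2 to 3 called lower. At pH 6.9 against pH 7.4, the number called higher (0) was 1 with no filter, 6 with the block and 0 to 1 with 1 library left out. The number called lower (0) was 1 by DESeq2's Wald test, 1 with no filter, 1 with these 2 media alone, 2 with the block and 0 to 1 with 1 library left out. The 1 in each direction came without the pH 6.4 library of repeat 3. At pH 6.4 against pH 6.9, the number called higher (5) was 2 with library size only, 10 with the block, 3 without the 2 libraries with the fewest genes, 3 with repeats 1 and 2 alone and 0 with repeats 3 and 4 alone. With 1 library left out it was 2 to 7. The number called lower (2) was 0 with these 2 media alone, 0 with repeats 1 and 2 alone, 0 with repeats 3 and 4 alone and 0 to 2 with 1 library left out. The difference between pairs of repeats had 0 to 2 calls with 1 library left out, with 2 without the pH 7.4 library of repeat 2. The number of genes higher in repeats 3 and 4 (2) was 4 with no filter and 2 to 4 with 1 library left out, and the number lower (11) was 7 to 13. The block changed no other call of the 32 genes between media than those given with its values. Except where fewer samples entered a fit, the cause was not tested. Beyond the main fits, shares of all genes called are given only for the block and for DESeq2's Wald test at pH 6.9 against pH 7.4. For the other alternatives they are not given, so a moved count cannot be read as a trait of the set. Depth limits what a count of 0 excludes: 3 counts were 0.0595 to 0.140 CPM.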
